A study of Mus musculus with 4 samples.

Results

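The genes described here are 10 members of the circadian clock, Clock, Arntl, Per1, Per2, Cry1, Cry2, Nr1d1, Nr1d2, Dbp and Tef. They were chosen by symbol, with earlier results of these data known. All 10 were among the 16613 gene symbols measured, and all 10 passed the filter on low counts. RNA-seq was performed on GFP+ cells from the marrow of mice given B220+ marrow cells into which N-myc had been introduced. The labels describe every sample as B-ALL cells (leukaemic B-cell precursors) induced by N-myc, from bone marrow, strain C57BL/6. The donor cells were Anp32b+/+ (wild type, 2 libraries) or Anp32b-/- (knockout, 2 libraries), so N-myc was common to both genotypes and the labels name Anp32b as the difference between them. The libraries also differed in Y-linked genes, which were lower in knockout (values at the end), and the sex make-up of the libraries and the genotype cannot be told apart. The sources used here do not give age, time of day at harvest, the promoter that drives N-myc or the number of mice per library. As no label ties the replicates to different mice, p-values here reflect library-to-library spread alone, and that spread may be technical.

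The clock is a transcriptional feedback loop present in most cells of the body. CLOCK and BMAL1, the product of Arntl, bind E-box sequences as a pair and activate the Per, Cry, Nr1d, Dbp and Tef genes. PER and CRY proteins then inhibit that pair, the REV-ERB proteins encoded by Nr1d1 and Nr1d2 repress Arntl, and DBP and TEF act on D-box sequences of further targets. In tissues with a running clock the RNAs of Dbp, Tef, Nr1d1, Nr1d2 and the Per genes peak at about the opposite time of day to that of Arntl.

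In the knockout libraries Arntl, Tef and Nr1d2 were lower by 25.7%, 23.7% and 20.0%, and Per1 and Cry1 were higher by 22.1% and 19.7%. These 5 members passed edgeR's quasi-likelihood test at an adjusted p under 0.05 over all 12123 tested genes, 2 as higher and 3 as lower. Clock, Per2, Cry2, Nr1d1 and Dbp did not pass it. For comparison, 23.6% of all tested genes were called in either direction, 10.9% as higher and 12.6% as lower. The median log2 fold change of the members was 0.06 and that of all tested genes 0.0021, while the median absolute log2 fold change was 0.26 for the members and 0.14 for all tested genes. For 7 members the values of the genotypes did not overlap (4 higher and 3 lower in knockout). Among all tested genes 60.5% were separated in this way, 30.0% higher and 30.5% lower.

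The sequences just before the start of the 5 called members are shown because E-boxes there are the sites through which the CLOCK and BMAL1 pair is known to act. RefSeq start windows of the build GRCm38.p6 matched 9 of the 10 members, Per2 being without one, with 14 windows in all. In each window the 250 bases before the start were searched on both strands. For Arntl and Per1 the RefSeq gene span begins farther upstream, at 113178471 and 69095108. The bases before those positions were not searched. The E-box CACGTG was found in 4 of the 14 windows, those of Per1 (1 of its 2 windows), Cry1 and Tef (both of its windows), and in 6.02% of all 32851 RefSeq windows of this length. The stretches below cover the 200 bases before the first listed start of each gene, 5′ to 3′ along the gene's strand, with the E-box in capitals.
Per1, chr11:69098749-69098948, plus strand: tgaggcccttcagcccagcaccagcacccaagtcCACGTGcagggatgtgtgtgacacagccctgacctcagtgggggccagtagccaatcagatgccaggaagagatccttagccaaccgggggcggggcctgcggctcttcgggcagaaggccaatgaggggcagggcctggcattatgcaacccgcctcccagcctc
Cry1, chr10:85185055-85185254, minus strand: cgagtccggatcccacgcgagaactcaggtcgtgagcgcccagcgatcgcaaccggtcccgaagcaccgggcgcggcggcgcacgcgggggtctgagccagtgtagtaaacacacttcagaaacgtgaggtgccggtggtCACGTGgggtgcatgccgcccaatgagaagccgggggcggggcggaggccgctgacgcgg
Tef, chr15:81802473-81802672, plus strand: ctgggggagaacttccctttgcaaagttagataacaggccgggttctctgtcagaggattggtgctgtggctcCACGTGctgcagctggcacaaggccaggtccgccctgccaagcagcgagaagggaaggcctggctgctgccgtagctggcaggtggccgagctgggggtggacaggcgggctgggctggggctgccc
Arntl, chr7:113207265-113207464, plus strand: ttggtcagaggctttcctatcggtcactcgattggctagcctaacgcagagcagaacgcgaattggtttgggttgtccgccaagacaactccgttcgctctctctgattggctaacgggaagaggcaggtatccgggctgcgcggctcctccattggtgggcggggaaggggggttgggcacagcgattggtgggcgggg
Nr1d2, chr14:18239107-18239306, minus strand: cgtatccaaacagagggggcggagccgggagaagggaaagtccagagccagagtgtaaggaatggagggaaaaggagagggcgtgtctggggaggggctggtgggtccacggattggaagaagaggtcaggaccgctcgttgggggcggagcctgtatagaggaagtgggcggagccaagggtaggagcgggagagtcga

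The E-box began 166 bases before the first listed start in Per1, 60 bases before it in Cry1 and 127 bases before it in Tef. Per1 and Cry1 rose in knockout and Tef fell, so members that hold this motif in the window moved in both directions. Arntl and Nr1d2, which both fell, hold no E-box in these 200 bases. The related motif CACGTT was found in Cry1, Cry2 and Nr1d1 and in 3.85% of all windows. The ROR element core TAGGTCA (2.23% of all windows), the D-box TTATGTAA (0.819%) and the cAMP response element TGACGTCA (1.55%) were in none of the 14 windows. The glucocorticoid response half-site AGAACA was in 1 window, that of the second start of Tef, and in 16.1% of all windows. No 2 of the 8 matches overlapped. These matches describe letters in short windows only.

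Arntl encodes BMAL1, the partner without which CLOCK does not drive the loop, and it was the most abundant member. Its normalised read count (CPM, the share of the library's counts after TMM scaling) was 83.8 and 86.3 in the wild-type libraries and 64.3 and 62.2 in the knockout libraries. Both knockout libraries lay below both wild-type libraries, and replicates were at most 0.05 apart on the log2 scale. Arntl fell by 0.43 on the log2 scale (SE 0.06, 95% interval -0.55 to -0.31, edgeR adjusted p = 7.27e-05), from 85.1 ± 1.80 to 63.2 ± 1.48 CPM (SD, n = 2 each). It was called in all 11 alternative settings that were run, with adjusted p from 5.61e-08 to 0.0136. Clock, which encodes the other partner, was at 29.0 and 26.3 CPM in wild type and 28.0 and 30.0 CPM in knockout, and the genotypes overlapped. Its log2 fold change was 0.07 (95% interval -0.10 to 0.24, edgeR adjusted p = 0.590). This interval leaves room for a change of -6.82% to 18.0% in Clock RNA. Clock's sign turned, to -0.00060, without wild-type replicate 2.

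**Figure D1:**
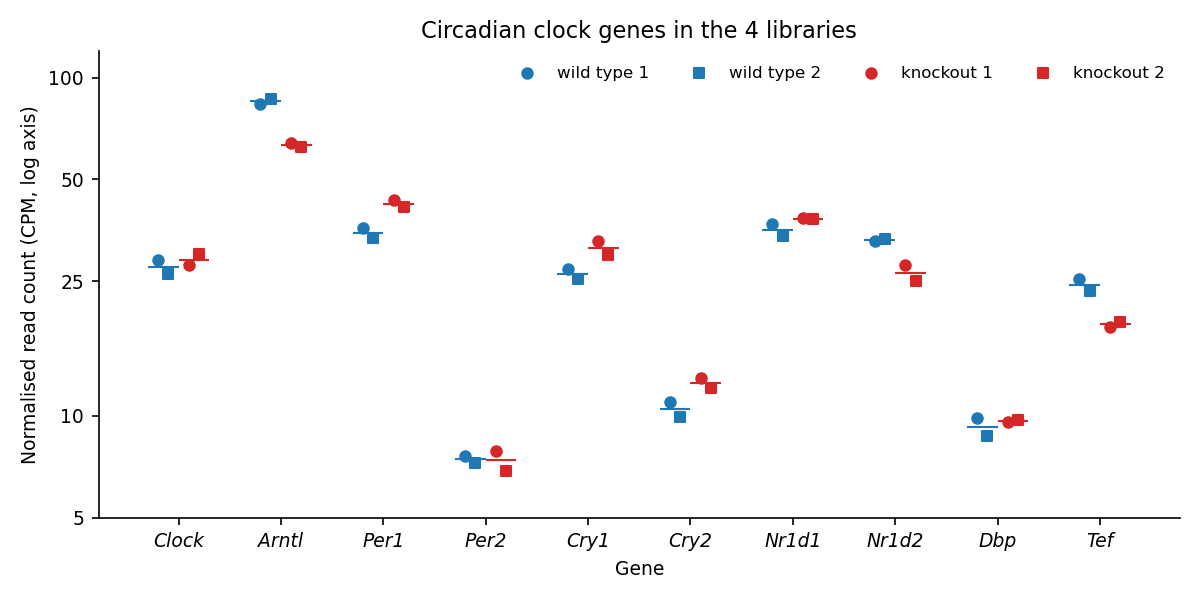
Normalised read count (CPM, log axis) of the 10 clock genes; circles and squares are replicates 1 and 2, blue is wild type and red is knockout, and short lines are means of 2 libraries. The red points lie below the blue ones for Arntl (64.3 and 62.2 against 83.8 and 86.3 CPM), Nr1d2 and Tef, above them for Per1, Cry1, Cry2 and Nr1d1, and among them for Clock, Per2 and Dbp.

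The period genes encode the inhibitors that enter the nucleus together with the cryptochromes. Per1 was at 35.8 and 33.5 CPM in wild type and at 43.3 and 41.4 CPM in knockout, without overlap. It rose by 0.29 on the log2 scale (SE 0.07, 95% interval 0.14 to 0.44, edgeR adjusted p = 0.00817). Omitting knockout replicate 1 ended the call (0.25, adjusted p = 0.122), as did DESeq2 (0.0634) and testing without the filter on low counts (0.0642). Per2, the other period gene among the members, was far less abundant, at 7.63 and 7.26 CPM in wild type and 7.91 and 6.87 CPM in knockout. The knockout libraries spanned the wild-type ones (log2 fold change -0.01, 95% interval -0.30 to 0.27, adjusted p = 0.964), so a change of -18.6% to 20.9% remains possible at this depth. The sign of Per2 turned when wild-type replicate 1 (0.02) or knockout replicate 2 (0.08) was omitted.

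Both cryptochrome genes, whose products are the stronger repressors of the CLOCK and BMAL1 pair, had higher values in both knockout libraries. Cry1 was at 27.2 and 25.3 CPM in wild type and 33.0 and 29.9 CPM in knockout, and rose by 0.26 on the log2 scale (SE 0.08, edgeR adjusted p = 0.0292). Cry1 was the least stable of the 5 calls: it passed in 5 of 11 alternative settings, with adjusted p from 0.00805 to 0.312, and omitting wild-type replicate 2 (0.0761), knockout replicate 1 (0.312) or knockout replicate 2 (0.0577) ended the call. It was also lost with upper-quartile normalization (0.0521), with no filter on low counts (0.126) and with DESeq2 (0.187). Cry2 was at 11.0 and 9.93 CPM in wild type and 12.9 and 12.1 CPM in knockout. Its log2 fold change of 0.26 was the same size as that of Cry1 but had a wider error (SE 0.11, 95% interval 0.03 to 0.49) and did not pass the test (adjusted p = 0.101). The non-coding gene D930015M05Rik lies on the opposite strand within Cry2 and shares 295 exon bases with it in GENCODE M21, or 4.67% of the exon bases of Cry2. The sources used here do not say whether counting used strand, so reads in that stretch cannot be assigned to one or the other.

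Nr1d1 and Nr1d2 encode REV-ERB alpha and beta, the haem-binding receptors that repress Arntl. Nr1d1 was at 37.0 and 34.0 CPM in wild type and 38.5 and 38.1 CPM in knockout. Although these values did not overlap, the wild-type libraries lay farther from each other than the nearest libraries of different genotype did (log2 fold change 0.11, 95% interval -0.04 to 0.26, edgeR adjusted p = 0.302). The log2 fold change of Nr1d1 was 0.05 when wild-type replicate 2 was omitted and 0.17 when wild-type replicate 1 was, neither of them called. Nr1d2 was at 32.9 and 33.3 CPM in wild type and 27.9 and 25.1 CPM in knockout, without overlap. It fell by 0.32 on the log2 scale (SE 0.08, 95% interval -0.49 to -0.16, adjusted p = 0.00729). Nr1d2 was no longer called once knockout replicate 2 was omitted (-0.26, adjusted p = 0.131), nor with DESeq2 (0.0659) or without the filter (0.0717).

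Nr1d1 lies on the minus strand of chromosome 11 at 98767932 to 98775377 and its end overlaps the end of Thra, a thyroid hormone receptor gene on the plus strand, with 263 shared exon bases, or 8.55% of the exon bases of Nr1d1. Thra was at 42.3 and 39.8 CPM in wild type and 32.4 and 31.4 CPM in knockout (log2 fold change -0.36, SE 0.07, adjusted p = 0.00172 in edgeR). The ratio of Nr1d1 to Thra on the log2 scale was -0.19 and -0.23 in wild type and 0.25 and 0.28 in knockout. Without a known strand setting, reads in the shared stretch could count for either gene, and the part of this in the value of Nr1d1 was not tested.

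Dbp and Tef encode PAR bZIP factors, which carry the clock's output through D-boxes. Tef was at 25.4 and 23.4 CPM in wild type and 18.3 and 19.0 CPM in knockout, with both knockout libraries below both wild-type ones. It fell by 0.39 on the log2 scale (SE 0.08, 95% interval -0.57 to -0.21, edgeR adjusted p = 0.00356), a call lost in 1 of 11 alternative settings, without knockout replicate 1 (-0.36, adjusted p = 0.0596). Dbp was at 9.84 and 8.72 CPM in wild type and 9.60 and 9.76 CPM in knockout, where the genotypes overlapped. Its log2 fold change was 0.06 (95% interval -0.19 to 0.31, adjusted p = 0.764), and it was -0.03 without wild-type replicate 2. Dbp shares 539 exon bases, or 18.0% of its own, with Sphk2, a sphingosine kinase gene on the other strand, which was at 60.1 and 54.2 CPM in wild type and 60.7 and 61.2 CPM in knockout (log2 fold change 0.09, adjusted p = 0.345). The value of Dbp may hold reads of Sphk2, and their part in it was not tested.

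**Figure D2:**
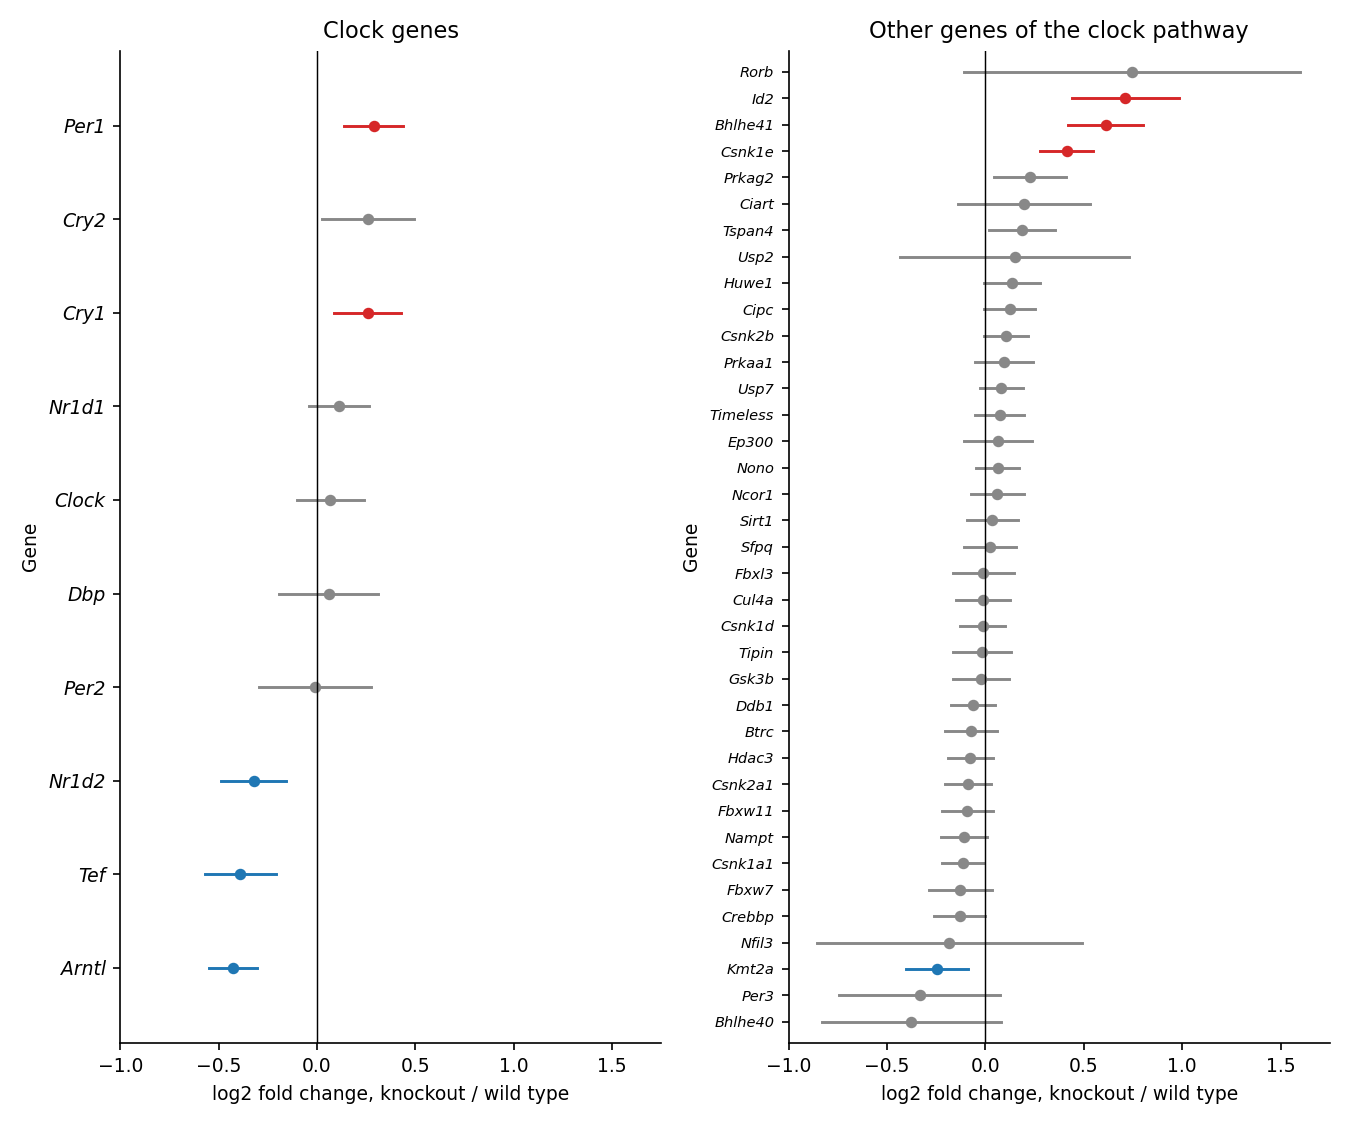
log2 fold change of knockout over wild type with its 95% interval from the edgeR fit, for the 10 clock genes and for 37 tested genes of the wider pathway; red is called higher, blue called lower and grey not called. Arntl (-0.43), Tef (-0.39) and Nr1d2 (-0.32) lie left of 0 and Per1 (0.29) and Cry1 (0.26) right of it, while Id2, Bhlhe41 and Csnk1e are the called genes on the right of the wider pathway.

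Levels of different genes were compared per length, as RPKM. This is CPM divided by the median length in kilobases of the gene's protein-coding transcripts in GENCODE M21. For Cry1, with 2 such transcripts, that median was 1601.5 bases, the midpoint of both lengths, while the longer has 3026 bases. In wild type the order was Arntl (31.1 ± 0.659), Cry1 (16.4 ± 0.836), Nr1d1 (13.0 ± 0.782), Nr1d2 (12.3 ± 0.118), Tef (10.7 ± 0.606), Per1 (7.65 ± 0.360), Dbp (7.41 ± 0.630), Clock (3.70 ± 0.250), Cry2 (3.41 ± 0.244) and Per2 (1.28 ± 0.0447 RPKM, SD, n = 2 each). Per1 and Dbp overlapped between libraries, as did Clock and Cry2, so those neighbours do not differ beyond their spread. With this length Per1 (9.33 ± 0.306 RPKM) stood above Tef (8.18 ± 0.226 RPKM) in knockout, and the knockout values of Arntl and Cry1 were closer together (23.1 ± 0.543 and 19.6 ± 1.35 RPKM). The order depends on the length used, and so does the nearness of Cry1 to Arntl. With the longest coding transcript these were at 10.4 and 21.2 RPKM in knockout. With the longest coding transcript, Arntl remained the highest and Per2 the lowest in wild type, but Nr1d1 (13.0 RPKM) stood above Cry1 (8.68 RPKM) and Per1 (7.43 RPKM) above Tef (5.55 RPKM) in wild type already.

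Because a ratio of 2 genes within a library does not depend on the library's scaling, related members were also compared as log2 ratios of CPM. The ratio of Per1 to Per2 was 2.23 and 2.21 in wild type and 2.45 and 2.59 in knockout. That of Nr1d1 to Nr1d2 was 0.17 and 0.03 in wild type and 0.47 and 0.60 in knockout. Dbp against Tef gave -1.37 and -1.43 in wild type and -0.93 and -0.96 in knockout. Clock against Arntl gave -1.53 and -1.71 in wild type and -1.20 and -1.05 in knockout. These 4 ratios were higher in both knockout libraries than in both wild-type libraries, with differences of the means of 0.30, 0.44, 0.45 and 0.50. Each pairs a called member with one that was not called, so these differences restate the fold changes given above. Among single tested genes 60.5% were separated between genotypes, and the share of all gene pairs whose ratio separates was not computed. Cry1 against Cry2 was at 1.31 and 1.35 in wild type and 1.35 and 1.30 in knockout, a difference of -0.0034 that was smaller than the SD in either genotype (0.030 and 0.034). With 2 libraries against 2, the smallest p that an exact two-sided permutation test allows is 0.333, which each of the 4 separated ratios reached, so no ratio of the 5 compared could pass a threshold of 0.05 by this test.

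**Figure D3:**
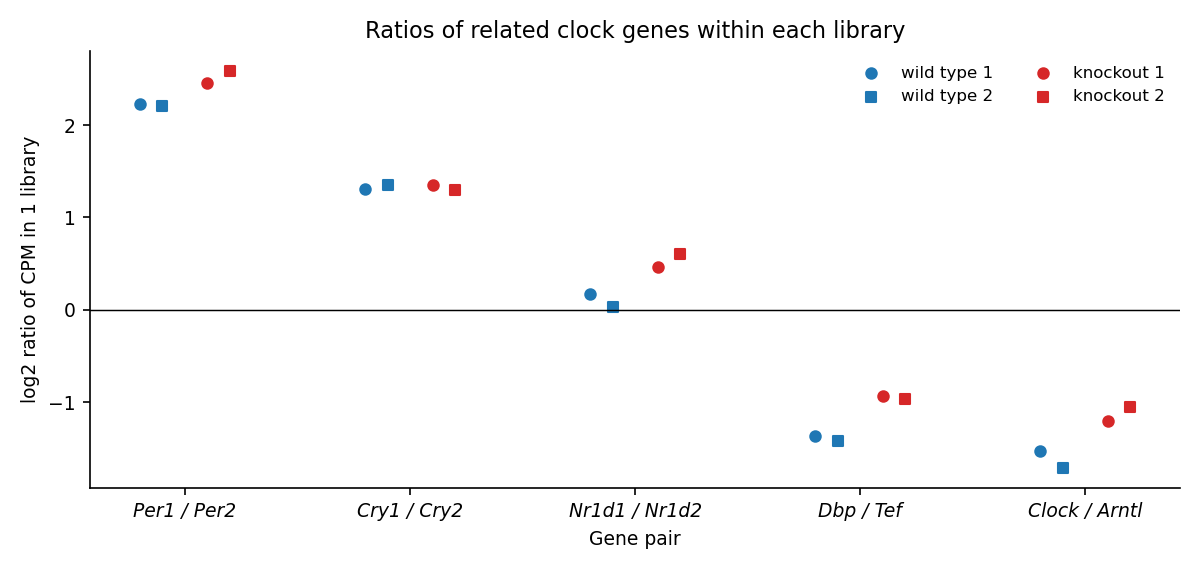
log2 ratio of CPM of 5 pairs of related clock genes within each library; blue is wild type, red is knockout, and circles and squares are replicates 1 and 2. The red points lie above the blue ones for Per1 / Per2, Nr1d1 / Nr1d2, Dbp / Tef and Clock / Arntl, and among them for Cry1 / Cry2 (1.30 to 1.35 in all 4 libraries).

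Since no harvest times are given, the libraries were compared for the balance between an evening and a morning group of clock genes. The evening group was Dbp, Tef, Nr1d1, Nr1d2, Per1, Per2, Per3, Ciart and Bhlhe41, and the morning group Arntl, Clock, Nfil3 and Cry1. This division is coarse. Cry1 was put with Arntl although the CLOCK and BMAL1 pair activates it, as it does the Per genes. Of the 9 tested evening genes, 2 were called higher (Per1 and Bhlhe41), 2 lower (Tef and Nr1d2) and 5 were not called, where 10.9% of all tested genes were called higher and 12.6% lower. Of the 4 tested morning genes, Cry1 was called higher and Arntl lower. Each group thus held calls in both directions. The mean log2 CPM of the evening group minus that of the morning group was -0.24 and -0.32 in wild type and -0.19 and -0.18 in knockout. The difference between genotypes was 0.09, against an SD of 0.055 between wild-type libraries and 0.0053 between knockout libraries. The wild-type libraries lay farther apart than the nearest libraries of different genotype. Some single genes differed by more than this balance, from -0.39 (Tef) to 0.61 (Bhlhe41) in the evening group. In the morning group they ran from -0.43 (Arntl) to 0.26 (Cry1). Bhlhe40 (-0.38) was in neither group. The balance thus depends on the genes chosen, and it was not recomputed with other groups.

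The ratio of Arntl to each of the 9 tested evening genes was then taken within each library. For 7 of them both knockout values lay below both wild-type values. All 9 ratios share Arntl, which itself fell by 0.43, so they are independent neither of each other nor of that fall. The share of all tested genes whose ratio to Arntl separates in this way was not computed. On the log2 scale Arntl exceeded Dbp by 3.08 and 3.29 in wild type and by 2.73 and 2.66 in knockout. It exceeded Nr1d1 by 1.18 and 1.34 in wild type and by 0.74 and 0.70 in knockout. Against Per2 the excess was 3.44 and 3.55 in wild type and 3.01 and 3.16 in knockout. For Tef and Per3 the genotypes overlapped: Arntl exceeded Tef by 1.72 and 1.88 in wild type and by 1.81 and 1.70 in knockout, and Per3 by 4.31 and 4.51 in wild type and by 4.27 and 4.35 in knockout. The log2 fold changes of Dbp, Nr1d1 and Per2 themselves were 0.06, 0.11 and -0.01, none of which passed the test. The largest distance between replicates among the 10 members was 0.20 on the log2 scale, for the knockout libraries of Per2. For Dbp, Nr1d1 and Per2 the replicates of a genotype lay up to 0.17, 0.12 and 0.20 apart, farther than the genotype means did (0.06, 0.11 and -0.01). Time of harvest and genotype cannot be told apart with these libraries.

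**Figure D4:**
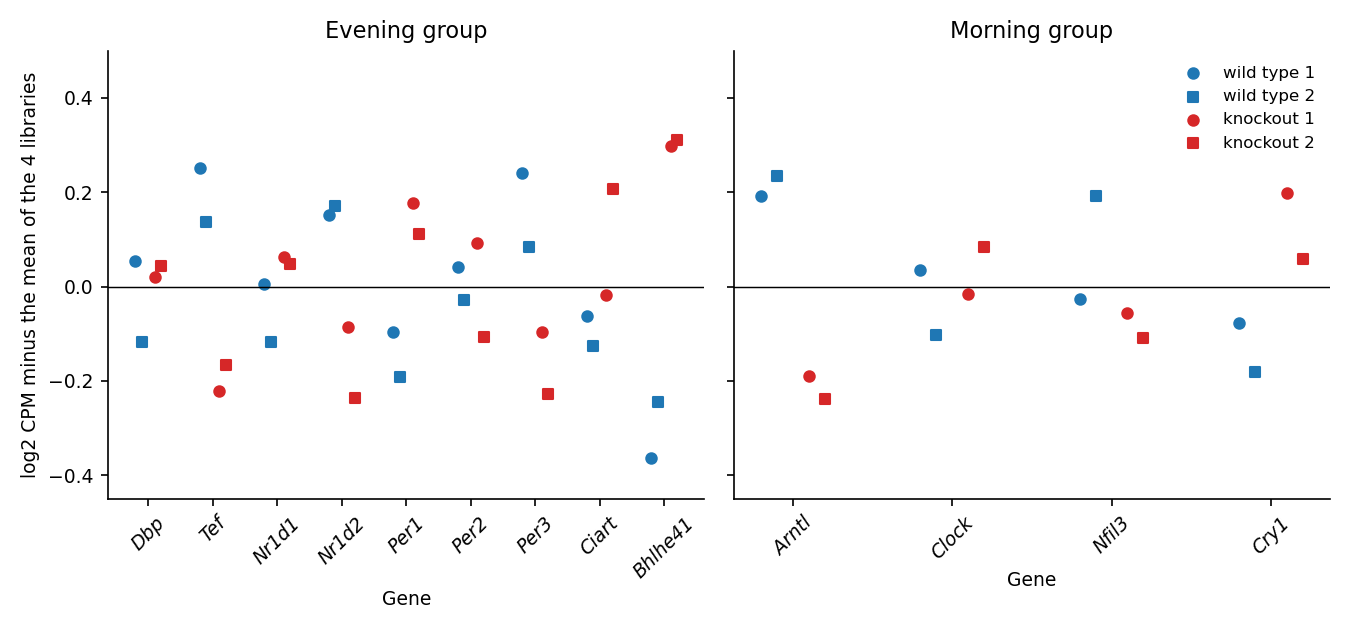
log2 CPM of each gene in each library minus the mean of the 4 libraries, for the evening group and the morning group; blue is wild type, red is knockout, and circles and squares are replicates 1 and 2. Both red points lie above 0 for Per1, Bhlhe41, Nr1d1 and Dbp and below 0 for Tef, Nr1d2 and Per3 within the evening group, and below 0 for Arntl and Nfil3 and above 0 for Cry1 within the morning group.

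The wider pathway was followed with a list of 42 genes, of which 41 were measured, 37 passed the filter on low counts and 4 were called, 3 higher and 1 lower. Beside the background of 10.9% and 12.6% of tested genes, these are 8.11% and 2.70% of the 37. Bhlhe41, which encodes the E-box repressor DEC2, was at 14.0 and 15.2 CPM in wild type and 22.2 and 22.4 CPM in knockout (log2 fold change 0.61, SE 0.09, edgeR adjusted p = 0.000146). Csnk1e, the gene of a casein kinase that phosphorylates PER proteins, was at 63.6 and 57.7 CPM in wild type and 79.4 and 82.3 CPM in knockout (0.41, SE 0.06, adjusted p = 0.000235). Id2, an inhibitor of helix-loop-helix factors, was at 5.87 and 5.70 CPM in wild type and 9.55 and 9.40 CPM in knockout (0.71, SE 0.13, adjusted p = 0.000902). For these 3 genes the genotypes did not overlap, and each was called in every alternative in which it was fitted.

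Kmt2a, which encodes a histone H3K4 methyltransferase reported to act with CLOCK, was the gene called lower. It was at 205 and 168 CPM in wild type and 157 and 157 CPM in knockout (-0.25, SE 0.07, edgeR adjusted p = 0.0265), and wild-type replicate 1 stood apart from the other 3 libraries. Without that library its log2 fold change was -0.10 (adjusted p = 0.126), and without knockout replicate 1, knockout replicate 2 or the filter it was also not called (adjusted p = 0.168, 0.138 and 0.244). The other 33 tested genes had log2 fold changes from -0.38 (Bhlhe40) to 0.74 (Rorb). Rorb was at 1.54 CPM in knockout replicate 1 and at 0.60 to 0.83 CPM in the other 3 libraries, and its value was 0.23 with knockout replicate 1 omitted and 1.11 with knockout replicate 2 omitted. Among them were Per3, the remaining period gene (-0.34, adjusted p = 0.234), and Ciart, a repressor of the loop (0.20, adjusted p = 0.412). Arntl2, Rora, Hlf and Fbxl21 fell below the filter, and Npas2 was not analysed here.

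Per1 is also known to be induced directly by glucocorticoids and by cAMP signalling, outside the feedback loop, so lists of genes induced by each were set beside it. Of 8 tested glucocorticoid-induced genes, 3 were called higher and 2 lower, beside 10.9% and 12.6% of all tested genes. Tsc22d3, which encodes GILZ, rose from 72.0 ± 0.549 to 138 ± 3.50 CPM (SD, n = 2 each, log2 fold change 0.94, SE 0.05, edgeR adjusted p = 1.82e-08). Fkbp5, a co-chaperone of the glucocorticoid receptor, rose by 0.97 (SE 0.06) and Klf9 by 0.88 (SE 0.08). Sgk1, a kinase gene, fell by 0.88 on the log2 scale (SE 0.06) and Cebpd by 1.73 (SE 0.41), the latter from 1.21 to 0.360 CPM. Cebpd was no longer called once knockout replicate 2 was omitted (adjusted p = 0.0620), nor with DESeq2 (0.0970).

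Among 7 early genes induced by cAMP, 5 were called higher: Nr4a1 (log2 fold change 0.89, SE 0.13), Sik1 (0.68, SE 0.05), Junb (0.52, SE 0.06), Fos (0.50, SE 0.05) and Nr4a2 (0.44, SE 0.12). The share of all tested genes called higher was 10.9%. Crem (-0.29) and Egr1 (-0.20) were lower in both knockout libraries without overlap, as were 30.5% of all tested genes. They did not pass the edgeR test (adjusted p = 0.187 and 0.101). DESeq2 did not call Nr4a2 (adjusted p = 0.151), and edgeR did not when knockout replicate 2 (0.235) or the filter (0.0927) was left out. The part of either input in the rise of Per1 was not tested.

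**Figure D5:**
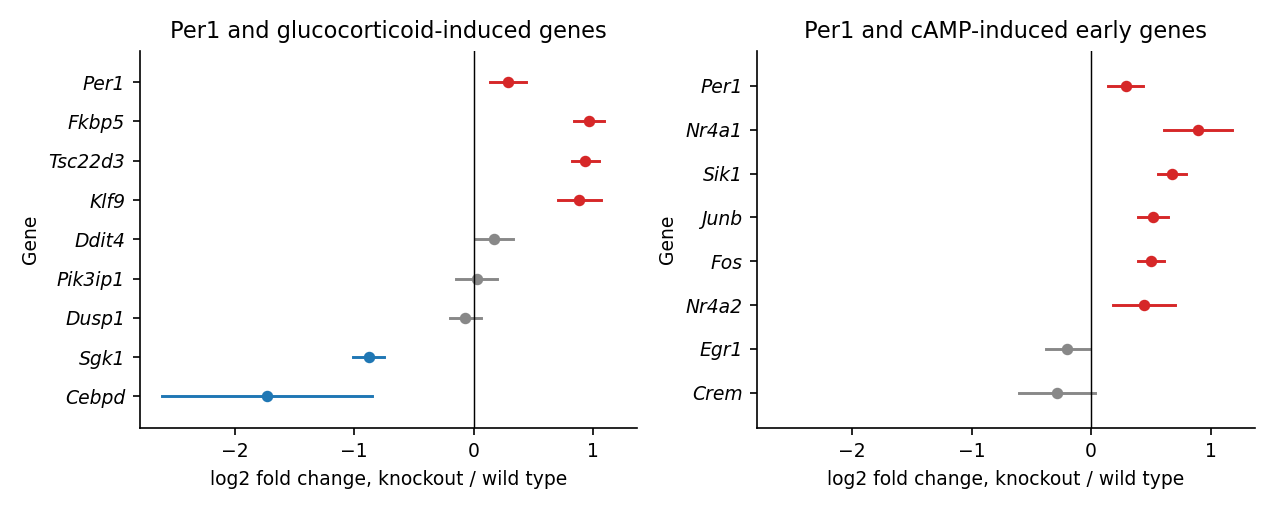
log2 fold change of knockout over wild type with its 95% interval (edgeR) for Per1 at the top of each panel, above 8 glucocorticoid-induced genes and 7 cAMP-induced early genes; red is called higher, blue called lower and grey not called. Fkbp5 (0.97), Tsc22d3 (0.94) and Klf9 (0.88) lie to the right of Per1 (0.29), and Sgk1 (-0.88) and Cebpd (-1.73) lie on the other side of 0.

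Library totals were 19581575 to 19758671 estimated reads. Anp32b was at 774 and 853 CPM in wild type and 74.4 and 70.6 CPM in knockout. Its RNA was thus reduced but not absent in the libraries labelled Anp32b-/-, and the source of the remaining reads was not tested. All 9 B lineage markers reported here were tested, including Cd79a and Pax5, and their summed level was 4378 to 4449 CPM in wild type and 4144 to 4176 CPM in knockout. Of these 9, Cd22 was called higher (log2 fold change 1.00) and Ebf1 (-0.52), Vpreb1 (-0.37) and Igll1 (-0.37) lower. For this and the marker counts below, 10.9% of all tested genes were called higher and 12.6% lower. All 13 neutrophil markers were called lower, with a summed level of 631 to 643 CPM in wild type and 124 to 125 CPM in knockout and none at 0. All 4 Y-linked genes were called lower as well, with sums of 156 to 173 CPM and 41.7 to 42.5 CPM. Of 7 monocyte and macrophage markers 3 were called lower (sums of 85.2 to 89.6 CPM against 34.8 to 37.0 CPM). The 6 erythroid markers gave no call (155 to 184 CPM against 187 to 189 CPM). T cell markers summed to 21.3 to 24.1 CPM and 15.3 to 16.2 CPM (2 of 3 tested were called lower). Most of that sum was Lck (16.1 and 18.9 CPM against 13.1 and 13.6 CPM). Cd3e was at 0 in knockout, but at only 0.10 and 0.20 CPM in wild type and below the filter. NK cell markers summed to 4.22 to 5.50 CPM and 0.924 to 1.39 CPM (2 of 3 tested were called lower). Plasma cell markers summed to 255 to 268 CPM and 253 to 262 CPM (1 of 4 called higher, 2 lower). Most of that sum was Xbp1, which rose (189 and 193 CPM against 212 and 225 CPM). Jchain (log2 fold change -2.03) and Prdm1 (-1.45) fell, and Sdc1 was not called (-0.08). Megakaryocyte and stromal markers stayed under 1 CPM in each library. These cells also have clocks, and the part of their RNA in the levels of the clock genes was not tested. In such bulk libraries fewer cells of a type and less RNA per cell cannot be told apart.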

How the data were processed

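RNA-seq of 4 libraries was grouped by the genotype in the labels. Each library has 1 deposited file, in which the authors give expected counts (estimated, with decimals, 64.5% to 65.6% whole) by gene symbol. HISAT2 2.0.4, DESeq2 1.4.5 and GRCm38 are named in the submitters' processing notes. The sources used here do not give the counting tool, annotation, strand setting or filters. Values were rounded to whole numbers and tested with edgeR 4.0.16 (R 4.3.3): TMM factors, filterByExpr (minimum count 10, leaving 12123 of 16613 symbols), quasi-likelihood test, no covariate, Benjamini-Hochberg adjustment over all tested genes, threshold 0.05. CPM values use the TMM-scaled totals. Limits for a count of 0 (3 reads) were 0.151 to 0.155 CPM and cover counting error only. Log2 CPM for the group balance used a prior count of 2. Counts of replicates differed beyond sampling noise, with a chi-square over its degrees of freedom of 5.56 in wild type and 2.14 in knockout. Gene coordinates and start windows are from RefSeq GRCm38.p6, exons and lengths from GENCODE M21. Alternatives were DESeq2 1.42.0, limma-voom (limma 3.58.1), RLE and upper-quartile normalization, no filter, 10 CPM in 2 libraries, a replicate block and leaving out each library, where the remaining library is taken to vary as the other genotype does. The procedure was tested on simulated data, where a pass required recovery only of changes larger than that of any member. Smaller changes and false calls had no pass condition. The members, lists and the rule for named genes (all members, wider pathway genes that were called or fell below the filter, the inducible lists and overlapping genes) were chosen with earlier results of these data known. Bhlhe40 and Rorb, the ends of a range, and Per3 and Ciart were named after their values were seen. Some list members are not reported here.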

Additional observations from a re-analysis of the deposited data

How the results depend on the processing

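Of 108 refits of single members, 91 kept their direction and their side of the threshold, 13 lost a call and 4 changed sign, the last for Clock, Dbp and Per2. With 1 library omitted at a time, log2 values for Clock ran from -0.00060 to 0.14, those of Dbp from -0.025 to 0.15 (both lowest without wild-type replicate 2) and those of Per2 from -0.12 to 0.078 (0.025 when wild-type replicate 1 was omitted, highest when knockout replicate 2 was). The 2 members called higher became 1 with upper-quartile normalization and 0 both with DESeq2 (2 at an unadjusted p under 0.05) and, in edgeR, with no filter (3 unadjusted). Over the leave-outs that number ran from 0 (edgeR without knockout replicate 1, 1 unadjusted) to 2. The 3 members called lower were 2 or 3 in every setting. In the wider pathway the leave-outs gave 3 to 6 higher calls and 0 to 2 lower calls, and no filter gave 0 lower (1 unadjusted, and 1 with DESeq2 after adjustment). In the 2 leave-outs with 0 lower calls, without either knockout replicate, 1 gene had an unadjusted p under 0.05. All called genes numbered 2856, against 1576 with DESeq2, 1291 with no filter and 1506 to 3431 over the leave-outs. The cause of these differences was not tested. With the replicate number as a block 3423 genes were called, and of the members 2 were called higher and 3 lower. Deviations of same-numbered libraries correlated at 0.035, so the numbers were not taken as pairing. The balance between evening and morning genes differed by 0.051 to 0.13 over the leave-outs. With 7.26 to 9.84 CPM in wild type, Per2 and Dbp had the widest intervals, and both lacked a fit at 10 CPM in 2 libraries.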
